A study of Mus musculus with 2 samples.

Results

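This report describes 6 genes known from the acinar cells of the exocrine pancreas and present in both libraries of mouse colon. These are the zymogen granule gene Sycn, the proteases Klk1 and Cela1, the trypsin inhibitor Spink1, the transcription factor Bhlha15 and the cargo receptor Tmed6. They are 6 of the 43346 Ensembl genes in the tables, each found by its GENCODE symbol. They were chosen by their TPM (a level per transcript length, scaled to a fixed total) and counts in these same libraries: each was present in both, while most digestive enzymes had many reads in replicate 2 and few in replicate 1. Their levels and the ratios between libraries are therefore a description, with no test. The colons came from adult mice of strain C57BL/6J aged 8 weeks, and 2 stranded libraries of polyadenylated RNA, numbered as biological replicates 1 and 2, form 1 group with no treatment named. The labels call the source littermates of both sexes, pooled, and give 1 donor record for both. Sex-linked counts, given below, differ between the libraries, so their spread may hold differences between animals as well as technical ones. There is no contrast between conditions.

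Acinar cells make digestive enzymes as inactive precursors, pack them into zymogen granules and release them on demand. Bhlha15, also called Mist1, drives the secretory machinery of such cells and is also made by plasma cells and gastric chief cells. Klk1 is tissue kallikrein, which cuts kininogens to release kinins, and it is made in several glands as well as in the gut. In bulk tissue, a lower share of cells of a type and less RNA per cell cannot be told apart.

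The libraries held 46689262 expected counts (replicate 1) and 45966841 (replicate 2). They stood apart in ways the labels do not give: 4 Y-linked genes had 0 counts in replicate 1 and 1382 in replicate 2, and Xist had 8721 and 12. By these genes replicate 1 reads as female and replicate 2 as male, so the label of pooled sexes describes neither library. A difference between the libraries therefore cannot be told apart from a difference of sex. Colon markers were abundant in both: goblet cell markers summed to 30046 and 34136 TPM and absorptive colonocyte markers to 22432 and 24514. The 27 digestive enzyme genes of the fixed list, from chymotrypsinogen to amylase, had a sum of 213.9 TPM in replicate 1 against 47215 in replicate 2, and 4 of them had 0 counts in replicate 1. All 5 haemoglobin and red cell genes were also higher in replicate 2, at 2998 against 524.6 TPM in sum. Over all genes tested, 5.11% were past 2-fold higher in replicate 2 and 3.63% in replicate 1. Of 5 pancreatic islet genes tested, the insulin genes Ins2 (0 and 771 counts) and Ins1 (0 and 390) were past 2-fold higher in replicate 2. The others were not past 2-fold. Ppy had 251.3 and 141.6 TPM and Iapp 37 and 27 counts, both higher in replicate 1, and Pdx1 had 48 and 72 counts. Of 7 enteroendocrine genes 1 was past 2-fold, Chgb, higher in replicate 1, and of 3 Paneth cell genes tested, Ang4 (738 and 155 counts) was past 2-fold higher in replicate 1 and Lyz1 (86 and 185.8) in replicate 2, while the defensin genes Defa24 and Defa30 had 0 counts in both. The part of these transcripts in the differences of the 6 genes was not tested.

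Klk1 belongs to a cluster of near-identical copies, and its sequence shows how far its reads can be told from theirs. Its transcript (ENSMUST00000075162.4) aligned to that of Klk1b5, the copy with which it shares most 25-base stretches, over 954 bases, with 94.2% identical. The coding stretch of 76 bases, the read length, at which the pair differ most holds 14 differences, printed in capitals, and lies at chr7:44229490-44229565 of mm10 on the plus strand in Klk1. The longest coding stretch without a difference, 145 bases at chr7:44228667-44228811 and thus longer than a single read, is printed last.
Klk1, most different stretch: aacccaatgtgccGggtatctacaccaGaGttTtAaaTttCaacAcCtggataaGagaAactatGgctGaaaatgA
Klk1b5, aligned stretch: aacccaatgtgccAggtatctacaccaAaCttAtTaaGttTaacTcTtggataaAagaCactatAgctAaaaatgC
Klk1, identical stretch: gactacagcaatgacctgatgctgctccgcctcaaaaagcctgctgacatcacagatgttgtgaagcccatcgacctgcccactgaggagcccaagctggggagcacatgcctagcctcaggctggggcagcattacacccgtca
Over the whole transcript, 124 of 879 stretches of 76 bases were shared with another gene's transcript, 96 of them with Klk1b5, so 85.9% occurred in Klk1 alone. The other 5 genes shared no 76-base stretch with any other gene of GENCODE vM21. Their expected counts were whole, except that of Sycn in replicate 1 (49831.99, with a deposited spread of 0.05 counts). The counting itself used the older GENCODE M4.

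The proximal promoters of the 3 most abundant of the genes are shown next, so that their letters can be set side by side. Each line gives the 250 bases before the RefSeq start, written on the gene's own strand, from GRCm38.p6: Sycn at chr7:28540635-28540884 (plus strand), Klk1 at chr7:44225110-44225359 (plus strand) and Cela1 at chr15:100687921-100688170 (minus strand). Capitals mark matches to TATAAA on the gene's strand, and to the E-boxes CAGCTG and CATATG or the RBPJ-type site TTTCCCA on either strand; acinar factors are known to bind E-boxes and RBPJ-type sites.
Sycn promoter: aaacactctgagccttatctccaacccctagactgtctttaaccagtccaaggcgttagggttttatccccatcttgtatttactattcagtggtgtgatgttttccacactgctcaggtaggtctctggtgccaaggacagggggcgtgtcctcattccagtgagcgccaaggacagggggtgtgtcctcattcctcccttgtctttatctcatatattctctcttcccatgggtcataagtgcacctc
Klk1 promoter: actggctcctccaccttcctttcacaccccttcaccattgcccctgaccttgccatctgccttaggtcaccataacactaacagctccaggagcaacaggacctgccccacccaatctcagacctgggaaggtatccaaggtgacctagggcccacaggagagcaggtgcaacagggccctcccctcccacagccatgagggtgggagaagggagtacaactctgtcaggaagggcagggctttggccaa
Cela1 promoter: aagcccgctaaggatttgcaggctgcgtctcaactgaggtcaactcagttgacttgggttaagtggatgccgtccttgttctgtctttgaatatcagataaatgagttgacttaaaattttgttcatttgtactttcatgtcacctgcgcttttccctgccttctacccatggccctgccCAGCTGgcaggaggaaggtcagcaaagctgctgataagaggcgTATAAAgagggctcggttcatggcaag
Of the letters searched, Cela1 held TATAAA, beginning 27 bases before its start, and CAGCTG, beginning 70 bases before it. Among 27025 promoters of this length, TATAAA occurred in 8.12%, CAGCTG in 12.8%, CATATG in 3.47% and TTTCCCA in 6.79%. The windows of Sycn, Klk1, Bhlha15 and Tmed6 held none of these letters, and Spink1 had no entry. Other E-boxes and other forms of the RBPJ-type site were not searched and stay in lower case. For example, CAGGTG lies in the Klk1 window, and its reverse complement CACCTG in that of Cela1. A window without capitals may therefore still hold such sites. The motifs do not overlap one another in Cela1, and a match is a description of letters, not a bound site.

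Sycn, whose product syncollin is attached to the inner face of the zymogen granule membrane, was the most abundant of the 6 by mean. It had 3930 TPM in replicate 1 and 6666 in replicate 2, a mean of 5298 ± 1935 (SD, n = 2). Both values are high: Sycn ranked 18 among 21474 protein-coding genes in replicate 1 and 9 in replicate 2. The gene (ENSMUSG00000084174.2, chromosome 7, 28540885 to 28542209, plus strand, mm10) has 2 exons and a transcript of 557 bases in the tables. It lies within the span of Samd4b on the opposite strand, and the exons of the pair share 0 bases. Its counts were 49832 and 85878, and after scaling by TMM (a library size factor that disregards the most extreme genes) the log2 ratio of replicate 1 over replicate 2 was -0.82, with an exact 95% binomial interval of -0.83 to -0.80 that covers counting error only.

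Klk1 was the steadier of the 2 most abundant genes. It had 4047 TPM in replicate 1 and 4708 in replicate 2, or 4378 ± 467 (SD, n = 2), and ranked 16 and 18 among protein-coding genes. Its range lies inside that of Sycn, so the order of these neighbours is not settled: Klk1 was ahead in replicate 1 and Sycn in replicate 2. The gene (ENSMUSG00000063903.4, chromosome 7, 44225360 to 44229618, plus strand) has 5 exons and 261 coding codons. Its expected counts of 98530.24 and 114778.06 were not whole, and the spread that the deposited tables give for them was 3.82 and 6.80 counts. The log2 ratio was -0.25 (interval -0.27 to -0.24). Gm10109, which overlaps its locus on the opposite strand, had 16 and 5 counts.

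Cela1, an elastase of the chymotrypsin-like family, differed most between the libraries. It had 422.6 TPM in replicate 1 and 2606 in replicate 2, so that the mean of 1514 ± 1544 (SD, n = 2) describes neither library. Replicate 2 was 6.29-fold higher on scaled counts (13797 against 84864), a log2 ratio of -2.65 (interval -2.68 to -2.63). Of all 17713 genes tested, 1.83% had a ratio at least as far from 0. Among the 130 of them with a mean TPM within 2-fold of that of Cela1, it was 4.62%. The same share, each among genes near its own level, was 3.58% for Bhlha15, 7.78% for Tmed6, 15.4% for Sycn, 45.8% for Klk1 and 69.9% for Spink1. The gene (ENSMUSG00000023031.7, chromosome 15, 100674421 to 100687921, minus strand) has 8 exons in its main transcript, codes for 266 codons, and ranked 295 in replicate 1 and 46 in replicate 2. Its range did not overlap those of Sycn and Klk1 above it or Spink1 below it.

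Spink1, the pancreatic secretory trypsin inhibitor, was the closest between libraries, with 187.4 TPM in replicate 1 and 189.5 in replicate 2. Its mean was 188 ± 1.499 (SD, n = 2), from 1451 and 1519 counts. The log2 ratio of -0.099 had an interval of -0.20 to 0.0061, so a difference between the libraries was not detectable at this depth. The gene (ENSMUSG00000024503.2, chromosome 18, 43728082 to 43737557, minus strand) has 4 exons and 80 coding codons. Its model in the tables is 422 bases long, against 729 in GENCODE vM21, and its effective length was 211.8 and 222.4 bases, so its TPM depends strongly on the annotation and the fragment lengths assumed.

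Bhlha15 and Tmed6 were far lower, with 0.000813 and 0.000734 times the TPM of Klk1 in replicate 1 and 0.0014 and 0.00105 times in replicate 2. Bhlha15 (ENSMUSG00000052271.7, chromosome 5, 144190286 to 144194441, plus strand) had 3.29 TPM in replicate 1 and 6.60 in replicate 2, or 4.95 ± 2.34 (SD, n = 2). Its counts of 395 and 784 were 8.54 CPM (counts scaled to a fixed library total; exact binomial 95% interval 7.72 to 9.42) and 17.2 CPM (16.1 to 18.5). Replicate 2 was 2.03-fold higher, a log2 ratio of -1.02 (interval -1.20 to -0.85), so whether the ratio reaches 2-fold is within counting error.

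Tmed6, a member of the p24 family that sorts proteins between the endoplasmic reticulum and the Golgi, was lowest. It had 2.97 TPM in replicate 1 and 4.93 in replicate 2, or 3.95 ± 1.39 (SD, n = 2), and its range overlapped that of Bhlha15. With 71 and 118 counts, it had 1.53 CPM (1.20 to 1.94) and 2.59 CPM (2.15 to 3.11). The log2 ratio of -0.76 had the widest interval of the 6, -1.21 to -0.33. The gene (ENSMUSG00000031919.5, chromosome 8, 107061476 to 107065644, minus strand) has 4 exons and 239 coding codons.

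**Figure D1:**
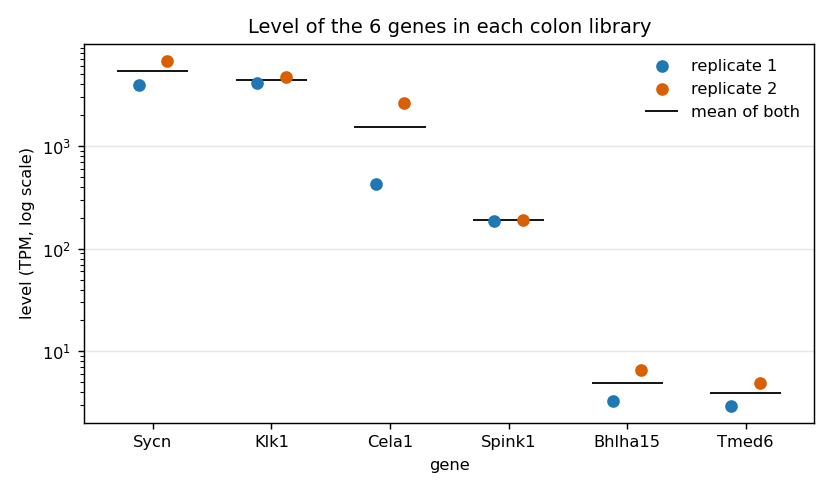
Level of each gene in TPM on a log axis, with a point for each library and a line at the mean of both. Sycn and Klk1 lie between 3930 and 6666 TPM, Spink1 has almost the same level in both libraries, and Cela1 has 422.6 and 2606.

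All 6 ratios lay below 0, that is, higher in replicate 2, with a median log2 ratio of -0.79, against -0.0066 over the 17713 genes tested, those whose counts summed to 10 or more. Past 2-fold in that direction were 2 of the 6, Cela1 and Bhlha15, and 5.11% of all genes tested, while 0 of 6 and 3.63% were past 2-fold in the other; in either direction it was 2 of 6 and 8.74%. The genes were chosen with these libraries in view, so nothing is read from the counts. The 6 genes held 0.355% of the counts of Ensembl genes in replicate 1 and 0.633% in replicate 2, and summed to 8593 and 14182 TPM. Each gene had a single transcript in the tables, which held 100% of its abundance in both libraries, so transcript shares add no further comparison.

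The digestive enzymes differed by far more, a contrast that the choice of the 6 genes partly set in advance. All 27 listed genes were past 2-fold higher in replicate 2, with a median log2 ratio of -10.04, or -9.81 with the 4 genes at 0 set to 3 counts. Their smallest fold was 29.8, for Clps, the cofactor of pancreatic lipase, against 1.07 to 6.29 for the 6 genes. Ctrb1, a chymotrypsinogen, had 12.5 and 12054 TPM, the elastase Cela2a 8.45 and 10083. Clps had 172 TPM and 2132 counts in replicate 1, a level near that of Spink1, and 4921 TPM in replicate 2. It too was thus present in both libraries, and 9 of the 27 had at least 1 TPM in replicate 1. In that library Ctrb1 and Cela2a were also above Bhlha15 (3.29 TPM) and Tmed6 (2.97 TPM), so presence in both does not set the 6 genes apart.

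**Figure D2:**
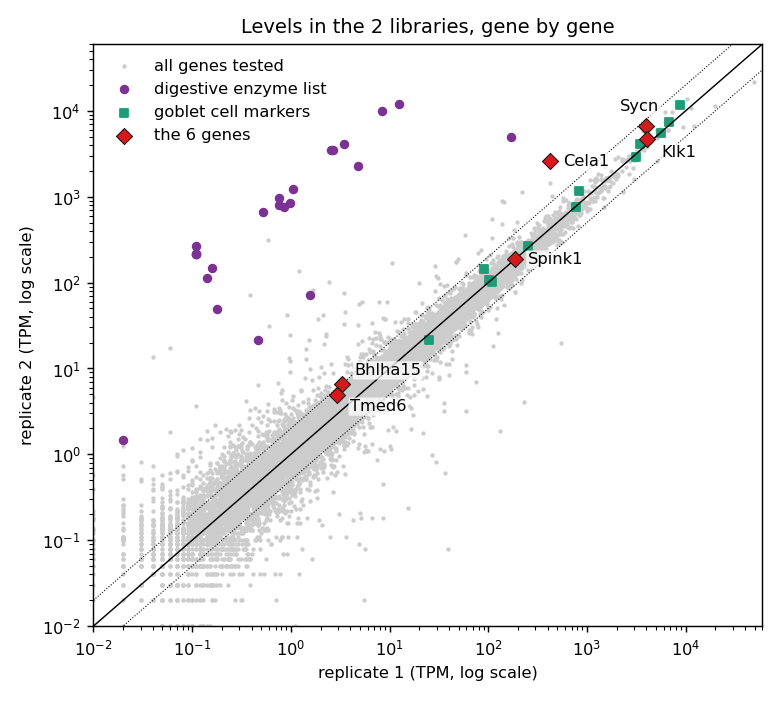
TPM of each tested gene in replicate 1 (horizontal) and replicate 2 (vertical), both on log axes, with lines of equality and of 2-fold difference; genes at 0 in either library are not drawn. The digestive enzymes lie far above the line, Cela1 lies between them and equality, and the other 5 genes lie on or near the 2-fold lines or between them.

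Set against Ctrb1 within the same library, 4 of the genes were above it in replicate 1 and below it in replicate 2, and 2 were below it in both. Sycn had 314 times the TPM of Ctrb1 in replicate 1 and 0.553 times in replicate 2. The level of Cela1 was 33.7 times that of Ctrb1 in replicate 1 and 0.216 times in replicate 2, and Spink1 had 15 and 0.0157 times. The fourth was Klk1, with 323 and 0.391 times. Bhlha15 had 0.263 and 0.000548 times the TPM of Ctrb1, and Tmed6 0.237 and 0.000409 times. Set against the goblet cell mucin Muc2, Cela1 had the widest difference: Sycn had 0.444 and 0.575 times the TPM of Muc2, Klk1 0.457 and 0.406, Spink1 0.0211 and 0.0163, and Cela1 0.0477 and 0.225. The proportions of the 6 genes to Ctrb1 differed between libraries, which follows in part from how the genes were chosen, so nothing more is read from it. In TPM, replicate 2 exceeded replicate 1 by 2736.7 for Sycn, 2183.6 for Cela1, 660.8 for Klk1 and 2.12 for Spink1.

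Other genes of the acinar programme fell into those held in both libraries and those with few or no reads in replicate 1. Of 12 transcription factors of acinar cells, all tested, 4 were past 2-fold higher in replicate 2 (5.11% of all genes tested). In replicate 1 it was 0 (3.63% of all), and the list median was -0.15. Bhlha15 is 1 of the 4, and without it 3 of 11 were past 2-fold, with a median of -0.13. The list was chosen with earlier results of these data known, so nothing is read from the count. Rbpjl, a subunit of the acinar PTF1 complex, had 0.060 and 17.1 TPM from 6 and 1502 counts. Ptf1a, its DNA-binding partner, had 0 counts and 106, at least 36.1-fold higher in replicate 2. Gata4 had 0.23 and 0.79 TPM. The highest of the list were Xbp1, a factor of the secretory stress response (151 ± 27.8 TPM, SD, n = 2), Foxa2 (129 ± 7.47) and Creb3l1 (116 ± 37.4), none of them past 2-fold.

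All 7 listed partners and inhibitors of Bhlha15 and 4 of its 5 listed targets had higher levels than Bhlha15 in both libraries. Of 7 genes for its E-protein partners and their Id inhibitors, 0 were past 2-fold, with Id1 at 978 ± 151 TPM, Id3 at 303 ± 72.1 and the E-protein gene Tcf3 at 77.6 ± 1.00. Of 5 target genes, 1 was past 2-fold: Rab26, a small GTPase of secretory granules, with 0.23 and 1.65 TPM, below Bhlha15 in both libraries, from 9 and 81 counts, and a log2 ratio of -3.13. At a minimum summed count of 100 Rab26 was not tested and 0 targets were past 2-fold. The others included the granule GTPase gene Rab3d (230 ± 26.9 TPM), the connexin gene Gjb1 (74.7 ± 11.5) and the calcium pump gene Atp2c2 (64.3 ± 5.79). The plasma cell markers, cells in which Bhlha15 is also made, summed to 532.9 and 612.9 TPM with 0 of 8 past 2-fold. They were led by Jchain (286 ± 21.4 TPM, SD, n = 2) and Sdc1 (201 ± 26.7), and Fkbp11 had the widest difference, 24.3 and 45.3 TPM. Of 3 gastric chief cell genes in the tables, Lipf had 0 counts in both libraries, Gif had 0 and 1, and Pgc had 17 and 37. The part of such cells in the level of Bhlha15 was not tested.

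Granule and secretion genes, the list that holds Sycn, were also mixed. Of 16 genes, 4 were past 2-fold higher in replicate 2 (5.11% of all genes tested) and 0 in replicate 1 (3.63%). The median log2 ratio was -0.15. The 4 were Gp2, the major zymogen granule membrane glycoprotein (0.60 and 31.4 TPM), Cuzd1 (1 and 347 counts), the pancreatic disulfide isomerase Pdia2 (0 and 882.5 counts, at least 301-fold) and Rab26. Zg16, a lectin made by goblet cells in the gut, had 3783 ± 497 TPM (SD, n = 2) and the mucosal scavenger protein gene Dmbt1 863 ± 145, with log2 ratios of -0.32 and 0.33. Sycn, at -0.82, was further from 0 than both and far closer to it than Gp2, at -5.71.

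**Figure D3:**
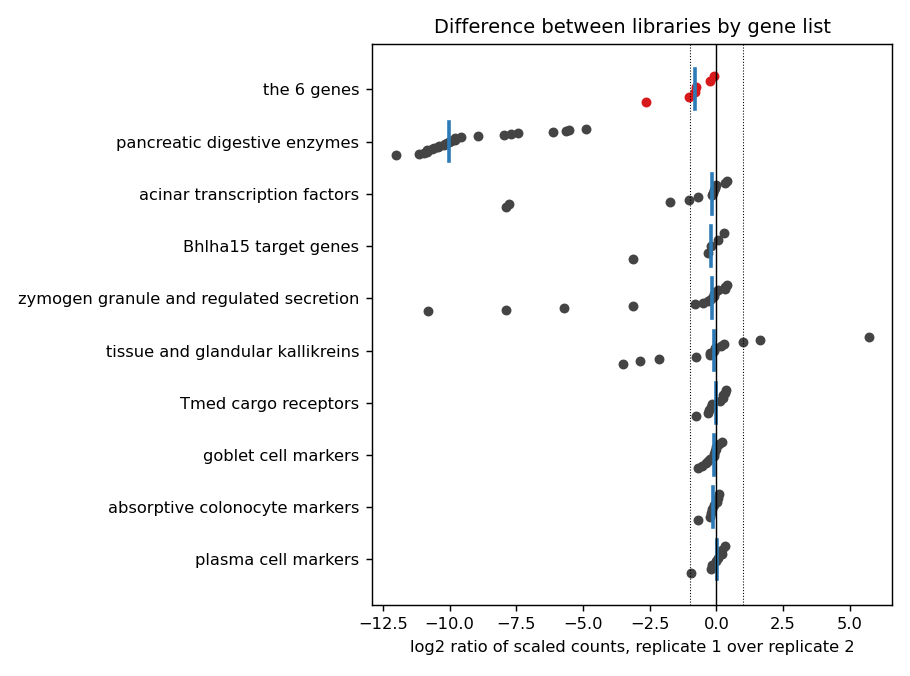
Log2 ratio of scaled counts, replicate 1 over replicate 2, for each tested gene of 10 lists; a vertical bar marks each list's median and dotted lines mark 2-fold. The 6 genes have a median of -0.79, the digestive enzymes of -10.04 and the goblet cell markers of -0.086.

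Among kallikreins, Klk1 held almost the whole level. The 26 listed genes summed to 4070.7 and 4737.2 TPM, of which Klk1 gave 4047 and 4708. The next were Klk15 (7.80 ± 0.219 TPM, SD, n = 2) and Klk1b5 (6.91 ± 6.16), the copy aligned to Klk1 above. Of 13 kallikreins tested, 3 were past 2-fold higher in replicate 2 (Klk1b5, Klk1b3 and Klk1b11) and 3 in replicate 1 (Klk1b22, Klk10 and Klk14), with 134 and 2 counts for Klk1b22. Over all genes tested, the shares were 5.11% and 3.63%. Most of these kallikreins have few reads, and at a minimum summed count of 100 only 2 kallikreins were past 2-fold, Klk1b5 and Klk1b22. Reads of near-identical copies can be assigned wrongly. The expected counts of Klk1b5 (60.75 and 268.78) were not whole, so some of its reads were split with other features. Those of Klk1b22, Klk1b3 and Klk1b11 were whole. In the kinin system that Klk1 feeds, 0 of 7 tested genes were past 2-fold. The kininogen genes had at most 2 counts in a library, Kng1 with 1 and 1 and Kng2 with 1 and 2, while the kinin receptor gene Bdkrb2 had 16.9 ± 2.66 TPM, Bdkrb1 1.81 ± 0.743, the carboxypeptidase gene Cpm 25.9 ± 0.863 and the kinin-cleaving enzyme gene Ace 33.2 ± 3.02.

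Within the elastase family, Cela1 had the highest level in replicate 1. Cela2a, Cela3b and Ctrc had 8.45, 2.67 and 0.76 TPM there against 422.6 for Cela1, and 10083, 3527 and 957 in replicate 2. Cela1 was thus above all of them in replicate 1, and below Cela2a and Cela3b but above Ctrc in replicate 2. Cela3a had 0 and 85.0 counts. The expected counts of Ctrc (13.26) and Cela2a (251.74) in replicate 1 were not whole, so some reads were split with other features, which leaves both values uncertain.

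Spink1 was second in its family to Spink4, a goblet cell gene, which had 7143 ± 506 TPM (SD, n = 2) and a log2 ratio of -0.24. Of the 12 Spink genes, 8 had 0 counts in both libraries, and the other two, Spink2 and Spink8, had at most 3 in a library. Trypsinogen genes, whose products Spink1 inhibits, were low in replicate 1 and mostly high in replicate 2, as with Prss2 at 3.44 and 4055 TPM. The level of Spink1 relative to Prss2 therefore differed widely between libraries.

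Tmed6 was among the lowest of its family. Of 10 Tmed genes tested, Tmed2 (243 ± 30.4 TPM, SD, n = 2), Tmed7 (160 ± 23.7) and Tmed3 (142 ± 11.8) led, and 0 were past 2-fold. Tmed6, at 3.95 TPM, was above Tmed8 (1.72 ± 0.113) and below the other 8 tested. Its log2 ratio of -0.76 was furthest from 0 in the family, where the other 9 lay between -0.31 and 0.37.

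**Figure D4:**
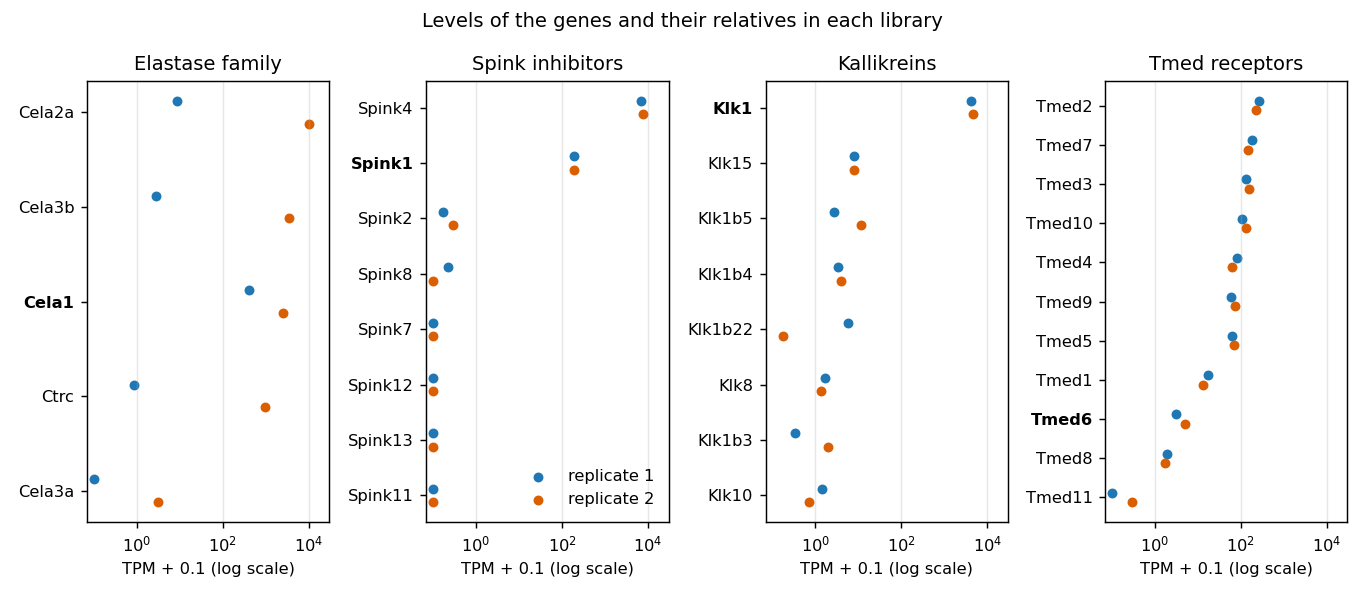
TPM + 0.1 on a log axis for the elastase, Spink, kallikrein and Tmed families, with a point for each library and the names of the genes described here in bold; the Spink and kallikrein panels show the 8 highest genes by mean. Klk1 and Spink4 stand far above most relatives, and Cela2a moves from 8.45 to 10083 TPM while Cela1 moves from 422.6 to 2606.

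The protein-coding genes nearest to each gene in level were found by Euclidean distance of log2(TPM + 1) over the 2 libraries. Guca2a (3701 and 5752 TPM, distance 0.23) and Rps12 (0.49) were nearest to Sycn. Krt19 (0.16) and Krt8 (0.27) were nearest to Klk1, and Ptprf (0.018) and Hist1h1c (0.031) to Spink1. Cela1 had no close neighbour, with Mrpl52 (441 and 1023 TPM) at 1.3. Stmn2 (0.011) and Tdp1 (0.035) were nearest to Bhlha15, and Enpp1 (0.033) and Mroh3 (0.038) to Tmed6. With 2 libraries, such likeness describes level and little else.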

How the data were processed

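Polyadenylated RNA of mouse colon was measured in 2 libraries of 1 group. For genes and for transcripts, the authors deposited expected counts (estimated read numbers), TPM and FPKM on the mm10 assembly with GENCODE M4, per the deposited file notes. For each transcript the deposited value is its percent of the abundance of its gene. The deposited tables also hold lengths and the posterior standard deviation of each count, treated as a signal in counts. The aligner, the quantifier version and the use of strand in counting were not given in the sources used here. The mm9 junction and contig files were not used here.

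Symbols and coordinates came from GENCODE vM21, matched by identifier without version (42462 of 43346 genes). Expected counts were rounded and scaled by TMM (edgeR 4.0.16, R 4.3.3) over genes whose counts summed to 10 or more, and 0.5 was added to each count for ratios. With 1 group, no test between conditions was possible, and none was run. The ratio step was tested on simulated counts that held counting error alone. That check does not cover the spread between real libraries, and the genes changed in it had more counts than Tmed6. Ranges on shares and ratios are exact 95% binomial intervals, and with folds against 0, set at 3 counts in that library, they cover counting error only. Promoters are RefSeq windows (GRCm38.p6), with 5 of the 6 genes matched. The genes and lists were chosen with earlier results of these data known. The rule for named genes takes the 6, the 3 highest of each list, those needed to describe a count, and the 2 nearest genes, of which 1 is not reported here; most goblet, colonocyte, enteroendocrine and red cell markers are given as sums or counts alone. Gm10109, Samd4b, Prss2, Bdkrb1, the kininogen genes, the genes of the chief cell list and the sex-linked genes were named after their values were seen. So were Iapp and Pdx1.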

Additional observations from a re-analysis of the deposited data

How the results depend on the processing

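Scaling changed little. The log2 ratios of the 6 genes stayed below 0 under upper-quartile scaling, DESeq2 size factors, library totals, posterior mean counts, 5 added to each count and a ratio of TPM + 0.5, with ranges of -2.67 to -2.62 for Cela1, -0.84 to -0.76 for Sycn, -0.27 to -0.22 for Klk1, -0.12 to -0.016 for Spink1, -1.04 to -0.91 for Bhlha15 and -0.78 to -0.65 for Tmed6. The number past 2-fold was 2, and 1 with the ratio of TPM + 0.5, where Bhlha15 fell short; the added 0.5 shrinks ratios of low levels. The summed level of the 6 genes, a mean of 11390 TPM, was 8593 and 14180 with a single library left in. Over all genes, 1549 were past 2-fold, 4312 with no filter on summed counts and 414 at a minimum of 100, since more or fewer low genes are tested. Of 38 list counts under DESeq2 size factors or that minimum, 35 were within 1.5 times; at that minimum the kallikreins fell from 6 to 2, the Bhlha15 targets from 1 to 0 and the gastric chief cell genes from 1 to 0, since fewer genes are tested. No paired analysis was possible because the libraries form 1 group. Depth limits Tmed6 and Bhlha15 most.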
